A study of Homo sapiens with 4 samples.

Results

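The genes described here are regulators of pre-mRNA splicing: the SR proteins, their relatives and kinases, and the heterogeneous nuclear ribonucleoproteins (hnRNPs). Members were taken by symbol: every SRSF gene with a number, every HNRNP gene of the symbol pattern, the SR-related genes TRA2A, TRA2B, SRRM1 and SRRM2, and the kinase genes CLK1 to CLK4, SRPK1 and SRPK2. This gave 47 of the 20263 rows of the count table, namely 12 SR proteins, 4 SR-related coactivators, 25 hnRNP genes and 6 kinases. The cells were MDA-MB-231, a human triple-negative breast cancer line grown in serum-containing medium. They were treated for 24 h with Rib_CA, described in the series title as a derivative of ribociclib (an inhibitor of the cell-cycle kinases CDK4 and CDK6), or with DMSO, and RNA was sequenced from 2 libraries per group. The dose is not given in the sources used here, the line is a single established line, and nothing in the labels states that each library came from its own culture. The p-values therefore cover the spread among these libraries, which may be technical.

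SR proteins bind exonic enhancers through RNA recognition motifs and recruit the splicing machinery through a tail rich in arginine and serine. SRPK kinases phosphorylate that tail in the cytoplasm, which allows import into the nucleus, and CLK kinases phosphorylate it there and release the proteins from nuclear speckles. hnRNPs coat nascent transcripts and often oppose SR proteins at exons, although several also act in export, stability and translation. Many genes of both families limit their own expression through exons that carry a premature stop codon, so that the spliced product is removed by nonsense-mediated decay.

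Library totals were 34774542 to 38865103 counts. Transcripts of the mitochondrial genome took 8.68% and 21.7% of the counts in DMSO and 5.78% and 3.13% in Rib_CA, a share that moves with the groups. With mitochondrially encoded genes left out, SRSF9 and HNRNPH3, the 2 members called below, passed as well (edgeR adjusted p = 0.0419 and 0.0497). Of 9 markers of the line, 8 lay at 10 CPM (counts per 1000000 of the library, scaled by edgeR's TMM method) or more in every library, among them VIM, CD44 and EGFR. SPARC, the other marker, was at 0.302 to 1.002 CPM. Of 9 luminal markers, 3 (ESR1, CDH1 and TFF1) were under 1 CPM throughout. KRT19, ERBB2, GATA3 and EPCAM, 4 of the 9, reached 10 CPM in at least 1 library, and 2 of them did so in every library. PGR was at 0.372 to 1.76 CPM and FOXA1 at 0.488 to 7.35 CPM. All 5 white blood cell markers were under 1 CPM throughout. The summed level of the 9 luminal markers was 295 and 381 CPM in DMSO and 467 and 361 CPM in Rib_CA, most of it KRT19 and ERBB2. Their part in the results below was not tested.

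The 2 members that passed the test went in opposite directions. SRSF9 rose and HNRNPH3 fell. That is 2 of 42 members tested, or 4.76%, where 7.13% of all 13667 genes tested were called by edgeR's quasi-likelihood test at an adjusted p under 0.05. By direction the members' counts were 1 higher and 1 lower, where 2.01% of all genes were called higher and 5.11% lower. The 5 members that were not tested, SRSF12, HNRNPCL1, HNRNPCL2, HNRNPCL3 and HNRNPCL4, had no count in any library. A count of 3, the upper limit that a count of 0 allows, corresponds to 0.0697 to 0.0911 CPM and covers counting error only.

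The genomic sequence just upstream of these 2 genes is shown because they are the members with a call. Both stretches are reference sequence from RefSeq (GRCh38.p14), 5′ to 3′ on the gene's strand, ending before the start of the nearest annotated protein-coding transcript. That of HNRNPH3 lies inside the gene's span, because 2 non-coding transcripts of the gene start further upstream and have exons in it. Capitals mark matches to any of 7 motifs searched on both strands: the GC box with the letters GGGCGG, the CCAAT box, the TATA box with the letters TATAAA, the CRE with the letters TGACGTCA, the E-box with the letters CACGTG, the NRF1 site, and the ETS site with the letters CCGGAAGT. The first stretch lies at chr12:120469794-120469998 on the minus strand and the second at chr10:68331814-68332063 on the plus strand.
SRSF9: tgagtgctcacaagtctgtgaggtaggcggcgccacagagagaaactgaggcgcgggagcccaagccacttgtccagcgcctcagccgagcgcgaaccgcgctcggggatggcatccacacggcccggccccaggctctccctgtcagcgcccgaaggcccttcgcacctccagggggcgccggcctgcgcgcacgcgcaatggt
HNRNPH3: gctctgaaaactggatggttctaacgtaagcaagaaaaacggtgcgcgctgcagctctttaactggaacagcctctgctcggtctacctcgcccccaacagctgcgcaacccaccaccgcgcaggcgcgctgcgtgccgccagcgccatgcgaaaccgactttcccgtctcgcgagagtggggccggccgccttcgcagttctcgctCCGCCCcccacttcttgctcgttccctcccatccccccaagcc
The SRSF9 stretch holds none of the 7 motifs, and that of HNRNPH3 holds 1 GC box in its reverse complement. These stretches hold 205 and 250 bases before the start, while the promoters counted next hold 250 before and 50 after it. Matches in the stretches and in the promoters are therefore not comparable. A GC box occurred in 36 of the 60 listed promoters of 39 tested members (60.0%), against 44.95% of all 35116 promoters of 300 bases. An E-box occurred in 10 of the 60 (16.7%, against 7.26%), a CCAAT in 24 (40%, against 34.6%), TATAAA in 7 (11.7%, against 11.5%) and the ETS letters in 3 (5.00%, against 4.14%). The CRE and NRF1 letters occurred in none of the 60, and in 1.85% and 1.24% of all promoters. The median GC content of the members' promoters was 65.0%, against 58.7% for all promoters. All promoters here are those of 27305 genes, tested or not, while the members are tested genes. These matches describe letters and not bound sites, and no binding or chromatin data entered the comparison.

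SRSF9 encodes a short SR protein related to SRSF1. Its level was 93.9 and 76.3 CPM in the DMSO libraries and 179 and 198 CPM in the Rib_CA libraries. Both Rib_CA libraries lay above both DMSO libraries. The means were 85.1 ± 12.5 and 189 ± 13.8 CPM (SD, n = 2), a 2.22-fold rise (log2 fold change 1.15 ± 0.26 SE; edgeR adjusted p = 0.0499). The gene (ENSG00000111786) spans chr12:120461668-120469793 on the minus strand in GENCODE release 29 (GRCh38). Of its exonic bases 46.2% are shared with GATC on the opposite strand, and whether counting used strand is not given in the sources used here. GATC itself was at 84.4 and 84.6 CPM in DMSO and 72.9 and 81.2 CPM in Rib_CA (log2 fold change -0.13 ± 0.24; adjusted p = 0.767). The call of SRSF9 was lost without DMSO 1 (adjusted p = 0.259) and without DMSO 2 (adjusted p = 0.411), while the log2 fold change stayed between 1.004 and 1.30 with any single library left out. It was also lost with total counts alone (0.0514), with limma-voom (0.0513) and with the replicate number as a block (0.0814). Over all alternatives the adjusted p ranged from 0.00167 to 0.411.

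HNRNPH3 encodes a small member of the hnRNP H/F family, whose proteins bind runs of G. It lay at 251 and 270 CPM in DMSO and at 126 and 95.4 CPM in Rib_CA. The groups did not overlap, and the gap between them was wider than the gap within either group. The means were 261 ± 13.1 and 111 ± 21.7 CPM (SD, n = 2), a 2.35-fold decrease (log2 fold change -1.24 ± 0.27 SE; edgeR adjusted p = 0.0467). The gene (ENSG00000096746) spans chr10:68331174-68343191 on the plus strand and shares 2.14% of its exonic bases with RUFY2. Its call was lost without DMSO 1 (adjusted p = 0.220) and without DMSO 2 (adjusted p = 0.255), with a log2 fold change of -1.50 to -1.05 when 1 library was left out. It was also lost with total counts alone (0.0653) and with the replicate number as a block (0.0642). Over all alternatives the adjusted p ranged from 0.000942 to 0.255.

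The number of calls moved with single libraries in the members as in all genes. Without DMSO 1 or without DMSO 2 no member passed edgeR's test, where 1.23% and 2.91% of all genes did, and 5 members in either case (11.9%) had an unadjusted p under 0.05, against 14.2% and 14.3% of all genes. With all 4 libraries, 13 of the 42 members (31.0%) had an unadjusted p under 0.05, near the 28.4% of all genes. Without Rib_CA 1, 10 of 42 members (23.8%) were called, against 20.5% of all genes, and without Rib_CA 2, 9 of 42 (21.4%), against 19.8%. DESeq2 on all 4 libraries called 12 of 42 (28.6%), against 18.7% of all genes. HNRNPH3 and SRSF9 were called in each of those 3 fits. A fit that leaves 1 library in a group takes its spread from the other group's pair, moderated over all genes, and assumes that the lone library varies like that pair. Calls made without a Rib_CA library therefore leave out the difference between the Rib_CA libraries.

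**Figure D1:**
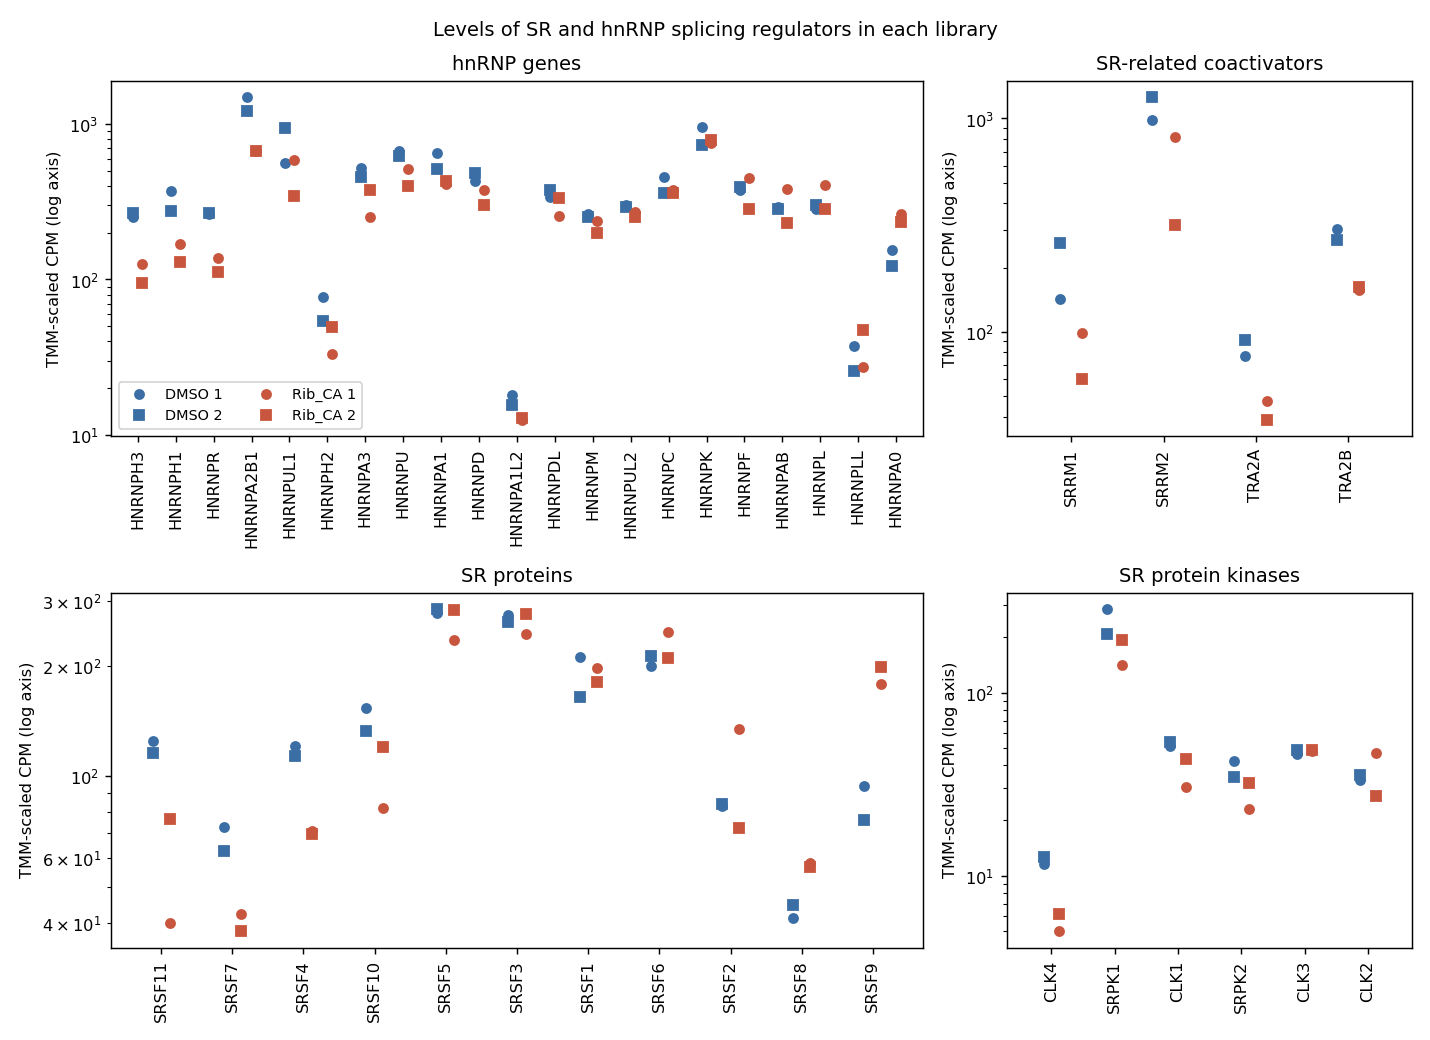
TMM-scaled CPM (log axis) of the 42 tested splicing regulators in each library, in 4 panels by role, with DMSO in blue, Rib_CA in red, replicate 1 as circles and replicate 2 as squares. Genes run from the lowest to the highest fold change within a panel; SRSF9 stands at 93.9 and 76.3 CPM in DMSO and 179 and 198 CPM in Rib_CA, and the Rib_CA libraries lie apart from each other for SRSF2, SRSF11 and SRRM2.

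Below the threshold, more members lay lower than higher in Rib_CA. The log2 fold change was negative for 31 of 42 members and positive for 11, with a median of -0.45 against 0.03 over all genes tested. Both Rib_CA libraries lay under both DMSO libraries for 25 members (59.5%), against 28.4% of all genes tested. They lay above for 3 members (SRSF9, SRSF8 and HNRNPA0; 7.14%), against 30.4% of all genes, and the groups overlapped for the other 14. An unadjusted p under 0.05 with a lower mean was reached by 11 members (26.2%), against 14.7% of all genes, and with a higher mean by 2, SRSF9 and HNRNPA0, against 13.7%. Under scaling by library totals only, the members' median was -0.25, where that of all genes was 0.23.

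The members' transcripts had a lower GC content than most, and fold changes ran along GC content over all genes. Across the 42 members the log2 fold change had a Pearson correlation of 0.17 with GC content (Spearman 0.27). Across 13651 genes with annotation it was 0.43 (0.48), and both are given as descriptions. The members ran only from 35.3% GC (HNRNPR) to 56.3% (HNRNPUL1), so the 2 correlations are not matched for GC range. The median GC content of the longest annotated transcript was 41.5% over the tested members and 48.5% over all genes tested. Among all genes tested whose transcripts had under 40% GC the median log2 fold change was -0.57, and the 14 members of that range had a median of -0.50. From 40 to 45% GC the medians were -0.34 for all genes and -0.48 for 16 members, and at 45% and over they were 0.27 and -0.12 for 12 members. That last range has no upper limit and held 8539 of all genes, while the highest member, HNRNPUL1, was at 56.3% GC. Its 2 medians are therefore not matched for GC content. A correction of each library for transcript GC content and length moved the members' median from -0.45 to -0.04, with 23 members negative and 19 positive, and left that of all genes at 0.04. The members moved in both directions: the medians became 0.04 under 40% GC, -0.01 from 40 to 45% and -0.35 at 45% and over, and the correlation with GC content became -0.37 (Spearman -0.31). After it no gene of the table passed edgeR's test, where 1814 higher and 1620 lower genes had an unadjusted p under 0.05. SRSF9 then stood at 1.30 on the log2 scale (adjusted p = 0.0801), HNRNPA0 at 1.71 (adjusted p = 0.0801) and HNRNPH3 at -0.88 (adjusted p = 0.135). The correction also removes any real difference that runs along GC content or length.

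**Figure D2:**
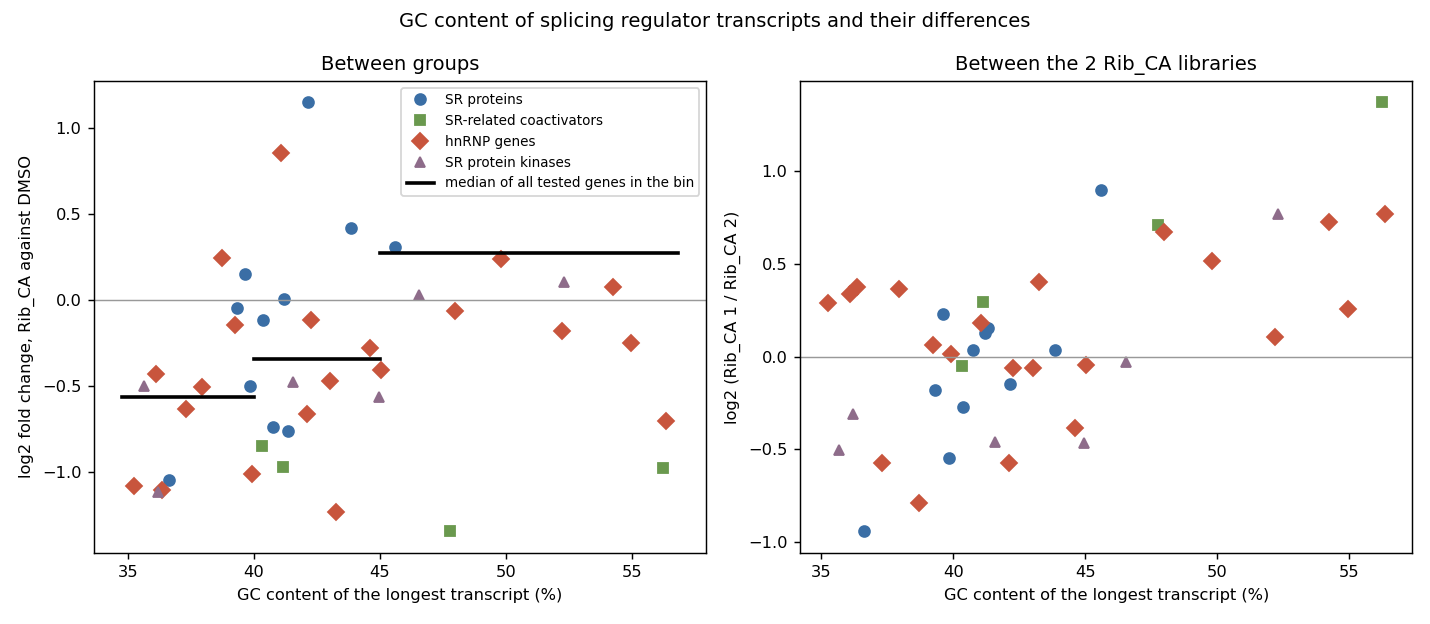
Each point is 1 of the 42 tested splicing regulators, placed by the GC content (%) of its longest transcript. The left panel plots the log2 fold change with the median of all tested genes in 3 GC ranges as black lines (-0.57, -0.34 and 0.27). The highest range has no upper limit for all genes, although its line ends with the members. The right panel plots the log2 ratio of the Rib_CA libraries, where 10 of 12 members with at least 45% GC lie above 0.

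The libraries of a group also differed along GC content. The 12 members with at least 45% GC were higher in Rib_CA 1 than in Rib_CA 2 in 10 cases, with a median log2 ratio of 0.69, while the medians were -0.08 and -0.06 in the 2 lower ranges. Across the 42 members, which share these 2 libraries, the ratio had a Pearson correlation of 0.60 with GC content (Spearman 0.47), given as a description. Over 13651 annotated genes the correlation was 0.38 (Spearman 0.43). The log2 ratio of DMSO 1 to DMSO 2 ran the other way along GC content. Its correlation was -0.42 in the members (Spearman -0.27) and -0.25 over the 13651 genes (Spearman -0.32). SRRM2, SRSF2, HNRNPUL1, CLK2, HNRNPAB, SRRM1 and HNRNPF were the members furthest above 0 in the Rib_CA ratio, with log2 ratios from 1.37 (SRRM2) to 0.67 (HNRNPF). For them the spread within Rib_CA limits what the comparison can show.

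Among the SR proteins, the summed level was 1656 and 1556 CPM in DMSO and 1530 and 1583 CPM in Rib_CA. The libraries of both groups overlapped in that sum. Of 11 members tested 1 rose and none fell (9.09%, against 7.13% of all genes called). Fold changes were negative for 6 and positive for 5, and the median was -0.05. The median was 0.44 after the correction, with 9 of 11 positive, and 0.15 with total counts alone, where that of all genes was 0.23.

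The most abundant SR proteins per length were SRSF1, SRSF5 and SRSF6, with 56.3 ± 9.76, 52.7 ± 0.97 and 44.9 ± 1.97 CPM per kb of exonic sequence in DMSO (SD, n = 2). The order of these levels rests on annotated length, and SRSF1 and SRSF5 did not differ beyond their spread. SRSF1, the founding member and a regulator of many cancer-related exons, was at 211 and 165 CPM in DMSO and 197 and 180 CPM in Rib_CA. Its Rib_CA libraries lay between the DMSO libraries (log2 fold change 0.00, 95% interval -0.63 to 0.64; edgeR adjusted p = 0.995). Of the exonic bases of SRSF1, 56.6% are shared with a read-through entry, ENSG00000266086, on the same strand, which held 1.64 to 3.35 CPM. SRSF5 was at 279 and 286 CPM in DMSO and at 236 and 284 CPM in Rib_CA (log2 fold change -0.12, interval -0.73 to 0.49; adjusted p = 0.803). SRSF6 was at 199.7 and 212 CPM in DMSO and at 247 and 210 CPM in Rib_CA (log2 fold change 0.15, interval -0.46 to 0.76; adjusted p = 0.744). For these 3 genes the groups overlapped, and the intervals leave room for differences in either direction. SRSF3, a small SR protein that also serves in mRNA export, overlapped between groups as well, with a log2 fold change of -0.05 (interval -0.65 to 0.55).

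At the low end, SRSF4 and SRSF11 had the smallest p among the SR proteins that did not pass. SRSF4, one of the longer SR proteins, was at 121 and 114 CPM in DMSO and at 71.2 and 69.6 CPM in Rib_CA (log2 fold change -0.74 ± 0.24 SE; adjusted p = 0.110), with replicates closer to each other than the groups were. SRSF11 was at 125 and 116 CPM in DMSO and at 39.9 and 76.6 CPM in Rib_CA (log2 fold change -1.05 ± 0.36; adjusted p = 0.117), and was called without Rib_CA 2 (adjusted p = 0.0144), in a fit that leaves out the log2 ratio of -0.94 between the Rib_CA libraries. After the GC and length correction SRSF4 was at 0.08 and SRSF11 at -0.52 on the log2 scale. SRSF7, an SR protein with a zinc knuckle, had a log2 fold change of -0.76 and SRSF10 one of -0.50, both with non-overlapping groups and neither called. Without Rib_CA 1, on the DMSO spread, SRSF7 had an adjusted p of 0.0492. SRSF2 had 1 Rib_CA library above and 1 below the DMSO libraries (135 and 72.2 against 82.9 and 83.9 CPM). Exons of MFSD11 cover 36.7% of its exonic bases on the opposite strand. SRSF8, a retrocopy related to SRSF2, was at 41.2 and 44.7 CPM in DMSO and 58.0 and 56.7 CPM in Rib_CA (log2 fold change 0.42; adjusted p = 0.326).

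The SR-related coactivators were the role in which every member lay lower. All 4 had both Rib_CA libraries under both DMSO libraries, as did 28.4% of all genes tested. None of the 4 passed edgeR's test, where 7.13% of all genes did. Their median log2 fold change was -0.98 (-0.80 after the correction and -0.79 with total counts alone). SRRM1 and SRRM2 encode large nuclear matrix proteins of the splicing machinery, and SRRM2 is a scaffold of nuclear speckles. SRRM2 was at 979 and 1259 CPM in DMSO and at 819 and 316 CPM in Rib_CA (log2 fold change -0.98 ± 0.47 SE; adjusted p = 0.225). Its Rib_CA libraries differed by more than the nearest libraries of the 2 groups did, and without Rib_CA 1 it was called (log2 fold change -1.87; adjusted p = 0.00556), in a fit that leaves out the log2 ratio of 1.37 between the Rib_CA libraries. Without Rib_CA 2 its log2 fold change was -0.45. SRRM1 was at 142 and 260 CPM in DMSO and at 98.2 and 59.9 CPM in Rib_CA (log2 fold change -1.35 ± 0.40; adjusted p = 0.0881), and its DMSO libraries also lay far apart.

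TRA2A and TRA2B, SR-like proteins that bind purine-rich enhancers, had tighter replicates. TRA2A was at 77.0 and 91.5 CPM in DMSO and at 47.2 and 38.5 CPM in Rib_CA (log2 fold change -0.97 ± 0.27; adjusted p = 0.0769). TRA2B was at 304 and 269.8 CPM in DMSO and at 157 and 162 CPM in Rib_CA (log2 fold change -0.85 ± 0.25; adjusted p = 0.0892). DESeq2 called both, at adjusted p = 0.0145 and 0.0150. Their 95% intervals of -1.62 to -0.33 and -1.45 to -0.25 exclude 0 before adjustment over all genes. After the GC and length correction the values were -0.64 and -0.26.

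**Figure D3:**
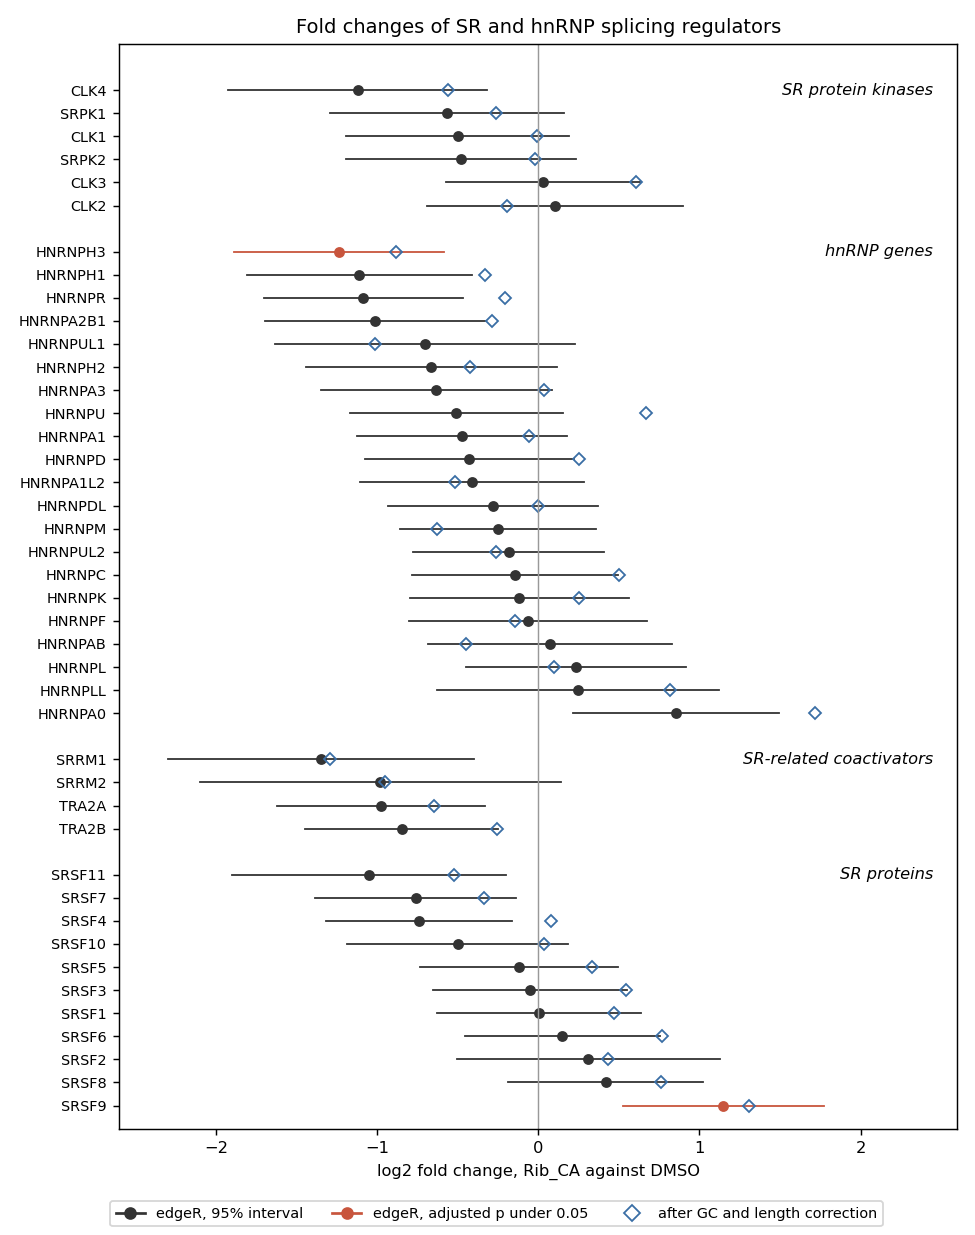
Log2 fold changes of Rib_CA against DMSO for the 42 tested splicing regulators by role, as dots with 95% intervals from edgeR (red where the adjusted p was under 0.05), and as open diamonds after the GC and length correction. The 4 SR-related coactivators lie left of 0 in both, while HNRNPU moves from -0.51 to 0.67 and HNRNPR from -1.08 to -0.21.

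Of 21 hnRNP genes tested, 1 fell and none rose (4.76%, against 7.13% of all genes called). Fold changes were negative for 17 and positive for 4. The median was -0.41 (-0.14 after the correction and -0.22 with total counts alone, where that of all genes was 0.23). Summed over the family, the level was 8795 and 8287 CPM in DMSO and 6744 and 5947 CPM in Rib_CA, with both Rib_CA libraries lower. HNRNPK, HNRNPAB and HNRNPF were the most abundant per length over both groups. HNRNPK, a poly(C)-binding protein, stood first in DMSO at 165 ± 31.1 CPM per kb (SD, n = 2), and HNRNPA2B1 second at 147 ± 20.7, which is within that spread. HNRNPA2B1 stood at rank 5 in Rib_CA, at 72.7 ± 0.58 CPM per kb.

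HNRNPK was at 958 and 734 CPM in DMSO and at 763 and 797 CPM in Rib_CA, within the DMSO range (log2 fold change -0.12, interval -0.80 to 0.56; edgeR adjusted p = 0.829). HNRNPAB was at 294 and 286 CPM in DMSO and at 381 and 229.9 CPM in Rib_CA (log2 fold change 0.07, interval -0.68 to 0.83; adjusted p = 0.910). HNRNPF, a G-run binding relative of HNRNPH1, was at 379 and 393 CPM in DMSO and at 453 and 284 CPM in Rib_CA (log2 fold change -0.07, interval -0.80 to 0.67; adjusted p = 0.917). In HNRNPAB and HNRNPF the Rib_CA libraries lay on either side of the DMSO libraries.

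HNRNPR and HNRNPH1 had the smallest p among the hnRNP genes that did not pass. HNRNPR was at 264 and 267 CPM in DMSO and at 138 and 112 CPM in Rib_CA (log2 fold change -1.08 ± 0.26 SE; adjusted p = 0.0557), and passed with either filter alternative and, on the DMSO spread, when either Rib_CA library was left out. HNRNPH1, which like HNRNPH3 and HNRNPF binds G runs, was at 370 and 276 CPM in DMSO and at 169 and 130 CPM in Rib_CA (log2 fold change -1.11 ± 0.29; adjusted p = 0.0695). HNRNPA2B1, which is implicated in reading methylated RNA, was at 1496 and 1225 CPM in DMSO and at 678 and 670.0 CPM in Rib_CA (log2 fold change -1.01 ± 0.29; adjusted p = 0.0791). In each of the 3 the groups lay apart, and DESeq2 called all 3. After the correction for GC content and length their log2 fold changes were -0.21, -0.33 and -0.29. HNRNPH3 went from -1.24 to -0.88 there and was no longer called (adjusted p = 0.135). A further paralog of these G-run binding genes, HNRNPH2, was at -0.66 on the log2 scale (edgeR adjusted p = 0.236), while HNRNPF was at -0.07. Of the exonic bases of HNRNPH2, 16.3% also belong to the read-through gene RPL36A-HNRNPH2.

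HNRNPA0 stood apart from the rest of the family. This gene, whose product binds AU-rich elements of mRNAs, was at 155 and 122 CPM in DMSO and at 266 and 234 CPM in Rib_CA. Both Rib_CA libraries were higher (log2 fold change 0.86 ± 0.27; edgeR adjusted p = 0.100), and DESeq2 called it (adjusted p = 0.0328). HNRNPA1, its well-studied paralog, was at 658 and 514 CPM in DMSO and at 413 and 430.2 CPM in Rib_CA (log2 fold change -0.47; adjusted p = 0.301). HNRNPA1L2, a near copy of HNRNPA1, was at 12.4 to 18.0 CPM, and reads of the 2 genes may have been exchanged, since the handling of reads that fit several genes is not given in the sources used here. HNRNPU, a nuclear scaffold protein, had a log2 fold change of -0.51 that was 0.67 after the correction. It has the longest transcript of the set at 13084 bases. Of its exonic bases 15.6% are shared with COX20 on the opposite strand. For HNRNPUL2, 44.1% of the exonic bases also belong to the read-through gene HNRNPUL2-BSCL2, and it had a log2 fold change of -0.18. The other hnRNP genes, HNRNPUL1, HNRNPA3, HNRNPD, HNRNPDL, HNRNPM, HNRNPC, HNRNPL and HNRNPLL, ran from -0.70 (HNRNPUL1) to 0.25 (HNRNPLL) with no call, although HNRNPA3, at 253 and 378 CPM in Rib_CA, had an adjusted p of 0.0402 on the DMSO spread without Rib_CA 2.

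No kinase passed edgeR's test, where 7.13% of all genes did. Of the 6 tested, 4 had negative and 2 positive fold changes. Their median was -0.49 (-0.11 after the correction and -0.28 with total counts alone, where that of all genes was 0.23). At an unadjusted p under 0.05 there was 1, CLK4 (16.7%, against 28.4% of all genes). SRPK1, the main cytoplasmic kinase of SR proteins, was the most abundant per length, at 37.1 ± 8.26 CPM per kb in DMSO (SD, n = 2), above CLK1 at 10.1 ± 0.39 and CLK2 at 9.34 ± 0.46. SRPK1 was at 287 and 209 CPM in DMSO and at 141 and 195 CPM in Rib_CA (log2 fold change -0.57 ± 0.30 SE; edgeR adjusted p = 0.271). CLK4 was the least abundant, at 11.5 and 12.6 CPM in DMSO and 4.95 and 6.13 CPM in Rib_CA (log2 fold change -1.12 ± 0.34; adjusted p = 0.0917). Its groups lay apart with a 2.17-fold lower level in Rib_CA, and it was called by DESeq2 (adjusted p = 0.0221) and, on the DMSO spread, without Rib_CA 2 (adjusted p = 0.0433).

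CLK1, a kinase whose own transcript is kept in the nucleus with unspliced introns, was at 50.8 and 53.7 CPM in DMSO and 30.5 and 43.3 CPM in Rib_CA (log2 fold change -0.50; adjusted p = 0.304). CLK2 was at 33.1 and 35.5 CPM in DMSO and 46.5 and 27.3 CPM in Rib_CA (log2 fold change 0.11, interval -0.69 to 0.90; adjusted p = 0.870), with the Rib_CA libraries on either side. CLK3 had a log2 fold change of 0.03 (interval -0.57 to 0.63) and SRPK2 one of -0.48 (interval -1.19 to 0.24).

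Annotated decay products were common in the set. GENCODE release 29 lists a transcript subject to nonsense-mediated decay for 33 of 42 tested members (78.6%), against 42.3% of all genes tested, and one with a retained intron for 31 (73.8%, against 55.8%). All 11 tested SR proteins and all 4 coactivators had such a decay product, against 13 of 21 hnRNP genes. The members had a median of 12.0 annotated transcripts and all genes 7.0, and the part of this in the shares was not tested. The median log2 fold change was -0.48 for the 33 and -0.18 for the other 9, and 0.00 and -0.26 after the correction. The table counts whole genes, so productive and decaying isoforms cannot be told apart.

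The other genes of the splicing pathway were read from 6 lists, written with earlier results of these data known. The part of that choice in the shares below was not tested. Of 149 tested, 20 fell and none rose (13.4%, against 7.13% of all genes), while at an unadjusted p under 0.05 there were 40 lower and 3 higher (28.9%, against 28.4% of all genes). DESeq2 called 32 lower and 3 higher (23.5%, against 18.7%). Without DMSO 1 the count was 5 lower (3.33%, against 1.23%), and without Rib_CA 1 it was 42 lower and 4 higher (30.7%, against 20.5%). After the GC and length correction none of the 149 was called, and no gene of the table was. The median of the 149 was -0.31 (-0.19 after the correction and -0.12 with total counts alone). That of all genes was 0.03, with 0.04 after the correction and 0.23 with total counts alone.

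SR-related proteins outside the symbol rule held 8 of the 20, among 26 tested (30.8%, against 5.11% of all genes called lower). Their median was -0.76 (-0.51 after the correction). BCLAF1, an RS-rich protein of the apoptosis field, fell from 129 ± 26.8 to 22.6 ± 11.4 CPM (SD, n = 2; 5.70-fold, and 2.91-fold after the correction; edgeR adjusted p = 0.0293). The cyclophilin gene PPIG fell 5.37-fold and U2SURP, a U2 snRNP-associated protein, 3.15-fold (3.04-fold and 1.72-fold after the correction). Of 48 core spliceosome genes 7 fell (14.6%, against 5.11% of all genes called lower). Among them were CWC22 (4.31-fold, and 2.99-fold after the correction), DHX15 (3.46-fold, and 2.32-fold) and CDC5L (3.01-fold, and 1.80-fold). The list's median was -0.16, with -0.27 after the correction and 0.02 with total counts alone, where that of all genes was 0.23. Of 18 genes of nonsense-mediated decay and the exon junction complex 3 fell (16.7%, against 5.11% of all genes called lower). They were UPF2 (4.32-fold, and 2.63-fold after the correction), UPF3B (3.14-fold, and 2.46-fold) and SMG8 (3.005-fold, and 2.97-fold). The median of that list was -0.41, with -0.16 after the correction and -0.21 with total counts alone.

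In the remaining lists single genes passed. PTBP2, a relative of the repressor PTBP1, fell 3.55-fold (1.63-fold after the correction). It was the 1 called of 18 other hnRNP-type genes (5.56%, against 5.11% of all genes called lower). The median of these 18 was -0.28 (-0.07 after the correction and -0.10 with total counts alone). MBNL2 fell 4.06-fold (2.69-fold after the correction) as the 1 of 24 tissue-type regulators (4.17%, against 5.11% of all genes called lower). That list had a median of -0.19, which was 0.08 after the correction and 0.0017 with total counts alone, against 0.23 for all genes there. MBNL1 and MBNL3, paralogs of MBNL2, had log2 fold changes of -1.38 (edgeR adjusted p = 0.0562) and -2.44 (adjusted p = 0.0742). After the correction they stood at -0.71 and -1.48. None of 15 other kinases and phosphatases passed edgeR's test, and 2 had an unadjusted p under 0.05 (13.3%, against 28.4% of all genes). PRPF4B had the smallest p (log2 fold change -1.39, edgeR adjusted p = 0.0681).

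**Figure D4:**
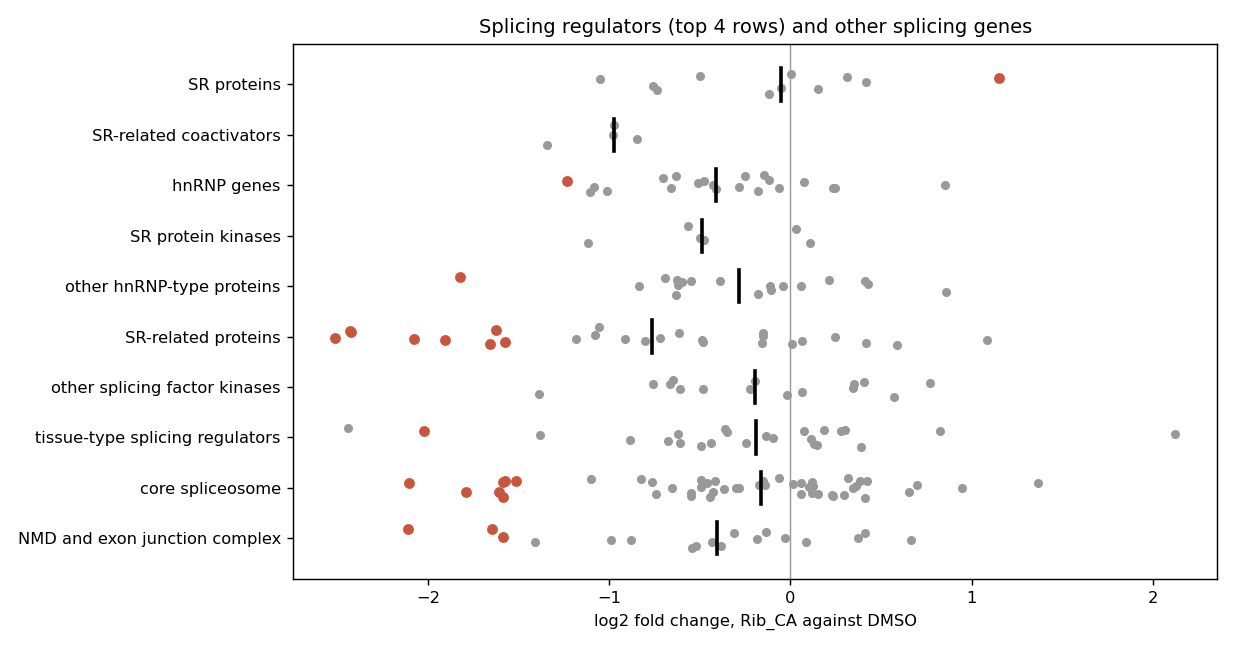
Log2 fold changes of Rib_CA against DMSO for each tested gene (dots, red where edgeR's adjusted p was under 0.05) in the 4 roles of the splicing regulators and in the 6 lists of other splicing genes, with black bars at the medians. The medians run from -0.98 in the SR-related coactivators to -0.05 in the SR proteins. The SR-related proteins outside the symbol rule hold 8 of the red dots (30.8% of 26 tested, against 5.11% of all genes called lower). The lists were written with earlier results of these data known.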

How the data were processed

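Libraries were prepared with an mRNA kit (Hieff NGS MaxUp), per the labels' protocols. The authors deposited 1 table of raw counts per Ensembl gene, without normalisation. Although the gene IDs are human, the submitters' processing notes list GRCm38 and mm10, both mouse builds. Which aligner and counter were run, with which build and strand setting, is not given in the sources used here. Even numbers made up 67.7 to 70.7% of the counts between 1 and 10, a pattern that counting both mates of a read pair would give, and the effect of this was not tested. The members and gene lists were chosen with earlier results of these data known.

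Symbols came from a table of gene names (20148 of 20263 IDs), and annotation from GENCODE release 29 (GRCh38; 20224 IDs). The filter was filterByExpr (minimum count 10, minimum total 15), and tests were run in R 4.3.3 with edgeR 4.0.16: TMM, glmQLFit (robust) and glmQLFTest, Rib_CA against DMSO, Benjamini-Hochberg adjustment over 13667 genes, threshold 0.05. Standard errors are the absolute log2 fold change over the root of F, and 95% intervals use the test's degrees of freedom. Levels per kb divide by the union of annotated exons. The GC and length correction uses smooths (mgcv 1.9.3, 6 basis functions) of each library's deviations from the mean as offsets. Alternatives included DESeq2 1.42.0 and limma-voom (limma 3.58.1). With 2 libraries against 2, an exact permutation test of a single value cannot go below p = 0.333. In simulated data of Rib_CA against DMSO over 13667 genes, the test recovered 73.3% of 4-fold and 98.3% of 8-fold changes. The simulation gave every gene the same dispersion and no differences along GC content. It held no changes under 4-fold, and the largest change of a tested member was 2.54-fold (SRRM1). It therefore does not show how often changes of the members' size are recovered. Fully described were members that passed, the 3 most abundant per length in each role and the 2 with the smallest p that did not pass, and of each list the 3 genes with the smallest p; other members are given by log2 fold change, range or count. A reference table of protein sequences was not used here.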

Additional observations from a re-analysis of the deposited data

How the results depend on the processing

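Each group has 2 libraries, the biological coefficient of variation over all genes was 0.314, and the effect of depth was not tested. Values run as higher then lower calls over all genes, main 275 and 699. They were 448 and 876 with no filter on low counts, 418 and 808 with a filter of 5 CPM, 260 and 328 with total counts alone, 1043 and 1514 by DESeq2, 0 and 0 after the GC and length correction, and 17 and 7 with that correction and the replicate block. With 1 library left out they ran from 36 to 1234 and from 137 to 1634. For the splicing regulators, with 1 and 1 in the main fit, the counts were 0 and 0 with total counts alone, the replicate block, and the correction with or without the block. They were 0 and 1 by limma-voom, 1 and 2 with either filter, 2 and 10 by DESeq2, and 0 to 2 and 0 to 9 with 1 library left out. Other splicing genes, 0 and 20 in the main fit, gave 0 and 8 with total counts, 3 and 32 by DESeq2, 0 and 0 after the correction with or without the block, and 0 to 5 and 5 to 42 with 1 library left out. The regulators' median of -0.45 was -0.25 with total counts alone, where that of all genes was 0.23. The regulators' median was -0.037 after the correction with or without the block, and -0.40 to -0.33 with 1 library left out.

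Same-numbered libraries did not deviate together (correlation -0.26), so the replicate numbers are not shown to pair the libraries. The replicate block called 260 higher and 687 lower genes, and no regulator. Crossed pairing, chosen after seeing the data, called 724 higher and 1267 lower genes, 1 and 6 regulators, and 2 and 30 other splicing genes. At an unadjusted p under 0.05 there were 12 regulators after the correction (28.6%, against 25.1% of all genes), 12 with the block (28.6%, against 21.5%), 8 with both (19.0%, against 19.5%) and 8 with total counts alone (19.0%, against 27.4%). The sign of the fold change was kept by 21 of 42 regulators in all 15 alternatives, 18 negative and 3 positive, and changed in at least 1 for 21. Levels per kb also depend on the length used. The causes of these differences were not tested.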
